A study of Rattus norvegicus with 8 samples.

Results

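The circadian clock of a cell passes its rhythm on through a small set of transcription regulators that the clock itself drives, and 8 of their genes, *Dbp*, *Tef*, *Hlf*, *Nfil3*, *Ciart*, *Bhlhe40*, *Bhlhe41*, and *Rora*, were followed in rat Achilles tendons after a single run. They were chosen by name, each name matched exactly 1 of the 32883 Ensembl genes in the deposited tables, and all 8 passed the filter on low counts that left 13937 genes to test. The tendons came from wild-type male Sprague-Dawley rats, 8 to 10 weeks old per the methods of the study, housed with light and dark periods of 12 hours each. The right tendon of 4 rats was taken 12 hours after 1 hour of uphill treadmill running (12 hours p.r.). The naïve control group (NC) held 4 rats that stayed in their cages without a run and were killed together with the runners. The labels name no drug in either group. Per the methods, airflow urged the runners on, and a mild electric stimulus met those that stepped off the belt, so the run and these stimuli cannot be told apart. The clock time of killing is not given in the sources used here, so no level below can be placed in the daily cycle.

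In background terms, the heterodimer of CLOCK and BMAL1 (gene *Arntl*) binds E-box DNA, with the core letters CACGTG, and switches on the period and cryptochrome genes, whose proteins then shut that heterodimer down. The same E-boxes drive output regulators. DBP, TEF, and HLF are the PAR bZIP activators and bind D-box DNA, NFIL3 is a bZIP repressor of the same D-boxes, CIART (also called CHRONO) and the basic helix-loop-helix proteins BHLHE40 and BHLHE41 (DEC1 and DEC2) repress E-box transcription, and RORA is an orphan nuclear receptor that activates *Arntl* through the ROR element. Tendon has a cell-autonomous clock of this kind in its fibroblasts.

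The promoter letters show which of these genes carry the E-box close to the start of transcription. RefSeq promoter windows of the rat assembly GRCr8, from 250 bases before to 50 bases after the start, were matched by symbol for 7 of the 8 genes (no window was matched for *Hlf*). The counts were made on another assembly, Rnor_6.0, so these coordinates belong to GRCr8 only. The palindrome CACGTG, read on both strands, stood in the windows of 4 of these 7 genes, against 6.42% of 33469 promoters. The following stretches, written 5′ to 3′ on the strand of the gene with the E-box in capitals, are shown because they show where the E-box lies in the members that hold one.
Tef, chr7:115206609-115206654, plus strand: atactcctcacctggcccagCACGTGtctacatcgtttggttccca
Ciart, chr2:186112242-186112359, minus strand: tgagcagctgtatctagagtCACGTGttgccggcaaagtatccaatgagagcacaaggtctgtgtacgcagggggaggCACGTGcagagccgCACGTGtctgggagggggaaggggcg
Bhlhe40, chr4:143174210-143174255, plus strand: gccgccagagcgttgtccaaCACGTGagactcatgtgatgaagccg
Bhlhe41, chr4:180569378-180569423, minus strand: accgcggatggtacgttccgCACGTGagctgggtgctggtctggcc
*Ciart* held 3 copies, starting 93, 35, and 21 bases before the transcription start, and 0.0568% of all promoters held at least 3. The single copy began 198 bases before the start in *Tef*, 220 in *Bhlhe40*, and 48 in *Bhlhe41*. In the windows of *Dbp*, *Nfil3*, and *Rora* none of the motifs searched was found. Besides CACGTG these were the variant E-box CACGTT (4.83% of promoters), the D-boxes TTATGTAA (0.893%) and TTACGTAA (0.12%), the cyclic AMP element TGACGTCA (1.83%), and the ROR half-sites TAGGTCA (2.63%) and TGGGTCA (4.09%), all on both strands. Of the 12 core clock genes with a matched window, *Per1* and *Per2* among them, 0 held CACGTG. Sequence outside these windows was not searched, so an E-box that lay farther away would not be seen. Of the clock-controlled targets treated below, 9 had a matched window and 2 held CACGTG. Of the core clock genes, 3 held CACGTT, *Per2* among them, *Per2* also held TTATGTAA, and *Arntl* held TAGGTCA 16 bases before its start. A match of letters is a description of the window and not a measured binding site.

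Before the members are compared, some libraries need naming. The reads on genes ran from 7350509 to 12951397 per rat. The summed level of 10 matched skeletal muscle markers was 62220 CPM (reads of a gene scaled to library size with TMM factors) in 12-hour p.r. replicate 3 and between 2087 and 11557 CPM in the other rats. Of 8 cartilage and bone markers, the sum was 1274 CPM in NC replicate 3, 442 CPM in 12-hour p.r. replicate 1, and between 4.05 and 17.7 CPM in the other rats. The 10 tenocyte markers, *Scx*, *Tnmd*, and *Mkx* among them, were all detected, with sums between 20531 and 56640 CPM, the lowest in 12-hour p.r. replicate 3. Of these 10, 6 had a log2 fold change above 0 and 4 below (median 0.34). *Scx* (0.62, without overlap), *Mkx* (0.78, with overlap), and *Thbs4* (0.56, with overlap) were higher at 12 hours p.r. Each had an unadjusted p value under 0.05 by edgeR, where 5.44% of all genes were higher at that limit. Of all genes, 3.52% were higher without overlap. The sums of 9 leukocyte markers overlapped between the groups (707 to 2778 CPM at 12 hours p.r. and 999.8 to 4016 CPM in NC), as did those of 8 endothelial markers (1431 to 1721 and 1429 to 1584 CPM) and 6 adipocyte markers (2807 to 6730 and 3948 to 6780 CPM). All 9 leukocyte markers had a log2 fold change below 0 (median −0.32), none with an unadjusted p value under 0.05. Of the endothelial markers, *Tie1* (0.31) and *Egfl7* (0.40) were higher at 12 hours p.r. without overlap, and *Emcn* (−0.40) was lower with overlap, each at an unadjusted p value under 0.05. At that limit 5.44% of all genes were higher and 4.08% lower. With a skeletal muscle score as a covariate, every regulator kept its sign and none had an unadjusted p value under 0.05. The part of the other cells in the results below was not tested beyond this covariate and the fits without the rats named. In whole tendon, fewer cells of a type and less RNA per cell cannot be told apart.

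To compare levels between genes, the FPKM values of the authors were used, which divide by gene length. In the NC rats *Dbp* was the most abundant of the 8, with a median of 102 FPKM (range, 79.8 to 122), above 94.5% of the genes tested. *Tef* followed at 39.0 FPKM (36.0 to 42.5) and *Bhlhe40* at 29.7 FPKM (25.8 to 32.7), and the ranges of these 3 genes did not overlap in the NC group. A wide step down led to *Bhlhe41* at 6.81 FPKM (5.47 to 10.95), *Nfil3* at 6.63 FPKM (4.64 to 8.09), *Ciart* at 4.72 FPKM (3.27 to 5.28), and *Hlf* at 3.31 FPKM (3.06 to 3.72). Neighbors in the order overlapped among these 4, whereas *Bhlhe41* lay wholly above *Hlf* and *Ciart*, and *Nfil3* wholly above *Hlf*. *Rora* was the lowest, at 1.95 FPKM (1.37 to 2.42). Among the D-box activators the tendon therefore held mostly *Dbp* and *Tef*, with *Hlf* far below both.

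**Figure D1:**
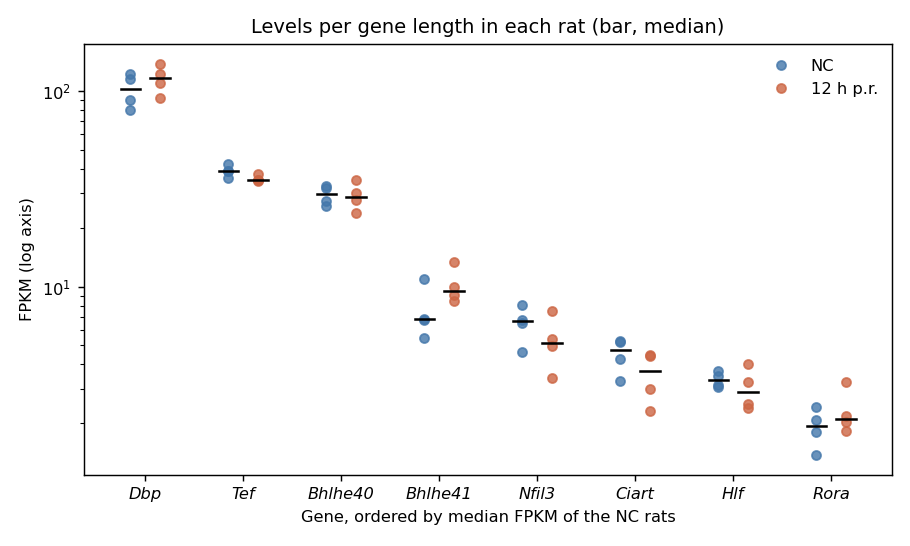
FPKM of the 8 regulators on a log axis, 1 point per rat, NC rats in blue and 12-hour p.r. rats in orange, with a bar at each group's median. *Dbp*, *Tef*, and *Bhlhe40* lie apart from the other 5 genes in both groups, and within each gene the groups overlap.

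The order of the medians at 12 hours p.r. was the same. *Dbp* had a median of 116 FPKM, *Tef* 35.2, *Bhlhe40* 28.8, *Bhlhe41* 9.51, *Nfil3* 5.18, *Ciart* 3.71, *Hlf* 2.88, and *Rora* 2.11. *Tef* and *Bhlhe40* overlapped there (34.5 to 37.6 against 23.7 to 35.0 FPKM), whereas *Bhlhe41* (8.44 to 13.4 FPKM) lay wholly above *Nfil3* (3.43 to 7.50 FPKM). *Hlf* and *Rora*, separate in the NC rats, overlapped after the run.

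Whether the run left a trace in these regulators after 12 hours was asked with edgeR's quasi-likelihood test, fitted on all 13937 genes with Benjamini-Hochberg adjustment over all of them. None of the 8 genes had an adjusted p value under 0.05, where 0.00718% of all genes did, and none had an unadjusted p value under 0.05, where 9.51% of all genes did. In none of them were the groups free of overlap, compared with 6.06% of all genes. The fitted log2 fold change of 12 hours p.r. against NC was above 0 in 3 members and below 0 in 5, while 54.2% of all genes were above 0. The median over the 8 was −0.07, beside 0.02 over all genes tested. With DESeq2's Wald test, the method of the study, the number of members at an adjusted p value under 0.05 was also 0, where 0.685% of all genes had one, and 0 had an unadjusted p value under 0.05, where 6.5% of all genes did.

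**Figure D2:**
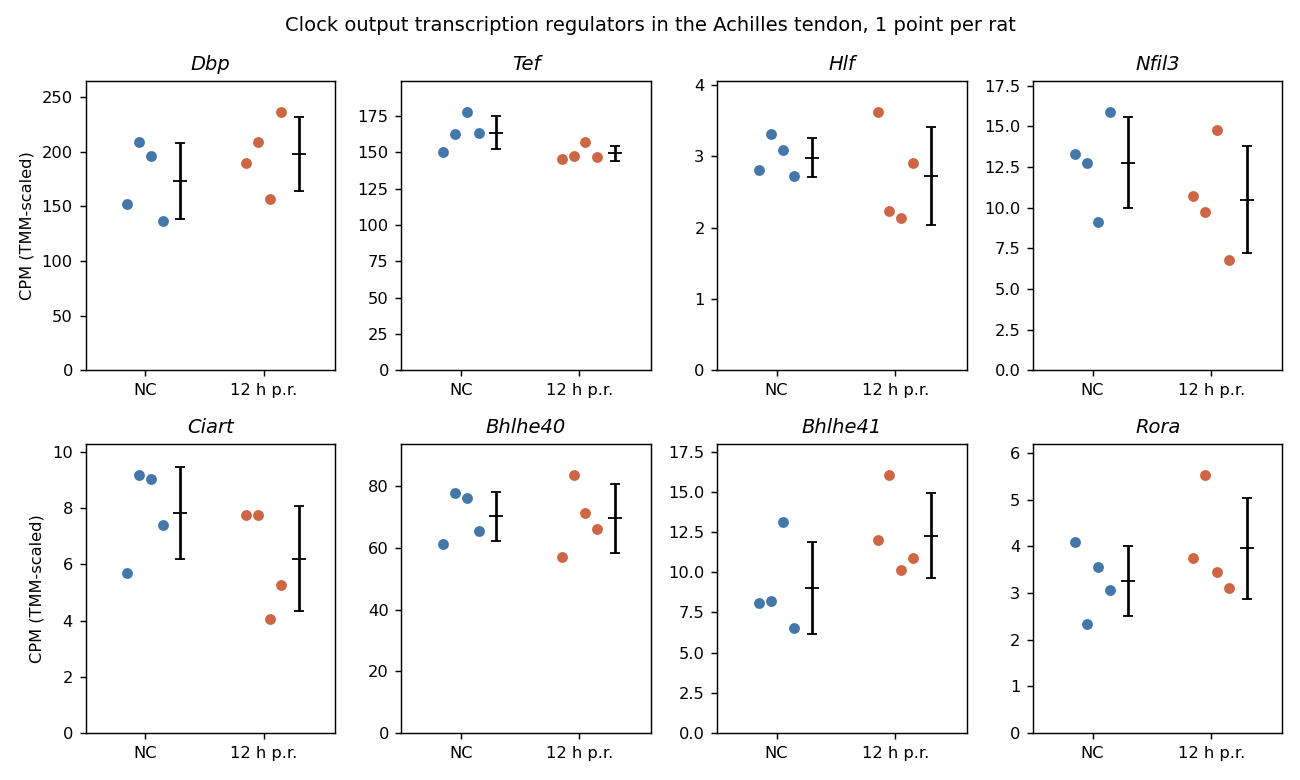
CPM of each regulator, 1 point per rat, with the group mean and SD (n = 4 rats per group) as a black bar, on axes that start at 0. In all 8 panels the NC and 12-hour p.r. rats overlap, and *Tef* has the narrowest spread.

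The PAR bZIP activators did not separate the groups. *Dbp* (ENSRNOG00000021027) was at 190, 208, 156, and 236 CPM in 12-hour p.r. replicates 1 to 4 and at 153, 208, 196, and 136 CPM in the NC rats. The highest runner and the lowest control stood at the ends, but the middle values were interleaved. The means were 198 ± 33.5 CPM (SD, n = 4) and 173 ± 34.6 CPM (SD, n = 4). Its log2 fold change was 0.19 ± 0.17 (SE, adjusted p = 0.760 by edgeR), with a 95% interval from 0.868 to 1.499 as a fold.

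*Tef* (ENSRNOG00000019383) was at 146, 148, 157, and 147 CPM at 12 hours p.r. and at 150, 163, 178, and 163 CPM in the NC group. Of the runners, 3 were below every control, and 12-hour p.r. replicate 3 lay above the lowest control (2-sided exact permutation test, p = 0.0571, where 0.0286 is the smallest value possible). The log2 fold change was −0.13 ± 0.09 (SE, adjusted p = 0.675 by edgeR), and the 95% interval of the fold ran from 0.80 to 1.05. This was the tightest interval of the 8 genes. *Tef* was also among the steadiest genes of the tissue, since its SD within groups, 0.08 on the log2 scale, was above that of only 2.22% of the genes tested and of 5.55% of those within a factor of 2 of its mean CPM.

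*Hlf* (ENSRNOG00000002456) rested on 17 to 41 reads per rat. It stood at 3.62, 2.24, 2.14, and 2.91 CPM at 12 hours p.r. and at 2.81, 3.31, 3.10, and 2.72 CPM in NC. Its log2 fold change was −0.12 ± 0.23 (SE, adjusted p = 0.895 by edgeR), with a 95% interval of the fold from 0.64 to 1.32. Sampling of so few reads alone gives an SD of about 0.28 on the log2 scale, more than the 0.23 observed within groups, so differences between single rats in *Hlf* are not detectable at this depth. Without 12-hour p.r. replicate 3 and NC replicate 3, its log2 fold change was −0.0038.

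*Nfil3* (ENSRNOG00000011668), the repressor at the same D-boxes, was at 10.7, 9.75, 14.8, and 6.76 CPM at 12 hours p.r. and at 13.3, 12.8, 9.14, and 15.9 CPM in the NC group. In 12-hour p.r. replicate 3 it was above 3 of the 4 controls, and in NC replicate 3 below 3 of the 4 runners. The log2 fold change was −0.28 ± 0.25 (SE, adjusted p = 0.751 by edgeR), with a 95% interval of the fold from 0.55 to 1.22. These rats are also the ones with the highest sums of muscle markers (12-hour p.r. replicate 3) and of cartilage and bone markers (NC replicate 3). Without both, a fit chosen after seeing the data, the log2 fold change of *Nfil3* was −0.63 (unadjusted p = 0.0178 and adjusted p = 0.389 by edgeR).

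The E-box repressors gave values on either side of 0. *Ciart* (ENSRNOG00000042717) was at 7.77, 7.77, 4.05, and 5.26 CPM at 12 hours p.r. and at 5.69, 9.20, 9.06, and 7.39 CPM in NC. Its log2 fold change of −0.34 ± 0.26 (SE, adjusted p = 0.711 by edgeR) had a 95% interval of the fold from 0.53 to 1.18. The lowest rat, 12-hour p.r. replicate 3, is the one rich in muscle markers. The log2 fold change was −0.18 without it and −0.099 without it and NC replicate 3. With the skeletal muscle score as a covariate and all 8 rats it was −0.36 (unadjusted p = 0.195 by edgeR).

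*Bhlhe40* (ENSRNOG00000007152) was nearly level, at 56.9, 83.8, 71.5, and 66.1 CPM at 12 hours p.r. and at 61.4, 78.0, 76.1, and 65.4 CPM in the NC group. The runners held both the lowest and the highest of the 8 values. The means were 69.6 ± 11.2 CPM (SD, n = 4) and 70.2 ± 8.09 CPM (SD, n = 4). The log2 fold change was −0.01 ± 0.13 (SE, adjusted p = 0.986 by edgeR), and a difference beyond 0.80- to 1.22-fold lay outside the 95% interval.

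Its close relative *Bhlhe41* (ENSRNOG00000048961) had the largest log2 fold change of the 8 in either direction. It was at 12.0, 16.1, 10.1, and 10.9 CPM at 12 hours p.r. and at 8.10, 8.22, 13.1, and 6.54 CPM in NC. Every runner was above 3 of the 4 controls, and NC replicate 3 alone was above 3 of the runners. The means were 12.3 ± 2.65 CPM (SD, n = 4) and 8.999 ± 2.86 CPM (SD, n = 4). The log2 fold change was 0.44 ± 0.24 (SE, adjusted p = 0.594 by edgeR), or 1.36-fold with a 95% interval from 0.93 to 1.98 (2-sided exact permutation test, p = 0.114). Without NC replicate 3 the log2 fold change was 0.69, with an unadjusted p value of 0.00978 and an adjusted p value of 0.474 by edgeR. Without both 12-hour p.r. replicate 3 and NC replicate 3, the fit chosen after seeing the data, it was 0.77 (unadjusted p = 0.00614, adjusted p = 0.373 by edgeR). Other omissions lowered it, to 0.29 without 12-hour p.r. replicate 2 (unadjusted p = 0.269 by edgeR) and 0.32 without NC replicate 4 (unadjusted p = 0.228 by edgeR). Within a library, the reads of *Bhlhe41* per read of *Bhlhe40* were 0.211, 0.192, 0.141, and 0.165 in the runners and 0.132, 0.105, 0.173, and 0.1 in the controls. This ratio does not depend on the scaling between rats, and NC replicate 3 was again the highest of the controls.

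*Rora* (ENSRNOG00000027145), the activator among these genes that works through the ROR element, was at 3.75, 5.53, 3.45, and 3.10 CPM at 12 hours p.r. and at 4.09, 2.33, 3.55, and 3.06 CPM in the NC group. Each rat gave only 19 to 51 reads. The log2 fold change was 0.27 ± 0.26 (SE, adjusted p = 0.775 by edgeR), with a 95% interval of the fold from 0.80 to 1.81. It was 0.06 without 12-hour p.r. replicate 2. Counting error is equal to 65.4% of the variance of *Rora* between rats of a group, beside 1.62% for *Dbp* and 7.79% for *Bhlhe40*.

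The genes of the clock that drives these regulators were compared next, from a list of 16 core clock genes of which 14 were tested. *Arntl2* (63 reads over all rats) and *Rorb* (4 reads) were below the filter. None of the 14 had an adjusted p value under 0.05 by edgeR. At an unadjusted p value under 0.05, 2 were higher (5.44% of all genes were) and 3 were lower (4.08% of all genes). The groups did not overlap in 1 gene that was higher (3.52% of all genes) and 2 that were lower (2.55%). The median log2 fold change of the 14 was −0.02.

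*Per2*, a negative arm gene of the clock, was at 59.3, 58.6, 39.9, and 43.7 CPM at 12 hours p.r. and at 75.7, 98.6, 78.3, and 117 CPM in NC, with no overlap. Its log2 fold change was −0.88 ± 0.18 (SE, adjusted p = 0.385 by edgeR), and DESeq2's Wald test gave an adjusted p of 0.00560. *Cry1*, a partner of the period proteins, was at 6.47, 7.64, 7.97, and 4.13 CPM and at 9.14, 10.9, 13.5, and 13.5 CPM, a log2 fold change of −0.85 ± 0.23 (SE, adjusted p = 0.432 by edgeR), also with no overlap. *Per1* had a log2 fold change of −0.70 ± 0.20 (SE, adjusted p = 0.432 by edgeR), with 12-hour p.r. replicate 1, at 83.2 CPM, above the lowest control, at 80.6 CPM. On the positive side, *Arntl* was at 13.1, 13.8, 10.7, and 12.5 CPM at 12 hours p.r. and at 9.94, 6.62, 5.74, and 7.99 CPM in NC, a log2 fold change of 0.72 ± 0.19 (SE, adjusted p = 0.422 by edgeR). *Nr1d1*, which encodes the REV-ERBα repressor of *Arntl* and *Nfil3*, had a log2 fold change of 0.51 ± 0.20 (SE, adjusted p = 0.489 by edgeR), with overlapping groups. Its unadjusted p value was above 0.05 without 12-hour p.r. replicate 2 (0.101), 12-hour p.r. replicate 4 (0.0767), NC replicate 1 (0.0757), or NC replicate 4 (0.0900). *Arntl*, *Per1*, *Per2*, and *Cry1* kept their direction and an unadjusted p value under 0.05 in every alternative fit that was run, including each fit without 1 rat.

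The other tested genes of that list were closer to 0 or wide. *Npas2*, which can replace *Clock*, had a log2 fold change of 0.65 ± 0.46 (SE), *Nr1d2* −0.28 ± 0.12 (SE), *Per3* −0.24 ± 0.16 (SE), *Cry2* −0.11 ± 0.14 (SE), and *Clock* −0.05 ± 0.12 (SE). The kinase genes *Csnk1d* and *Csnk1e*, whose products phosphorylate period proteins, had values of 0.01 ± 0.08 (SE) and 0.14 ± 0.10 (SE). *Fbxl21* and *Timeless* were at 0.15 ± 0.32 (SE) and 0.14 ± 0.25 (SE). The value of *Npas2* was 0.18 without 12-hour p.r. replicate 2 and 1.01 without NC replicate 2. With all 8 rats, none of these 9 genes had an unadjusted p value under 0.05.

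**Figure D3:**
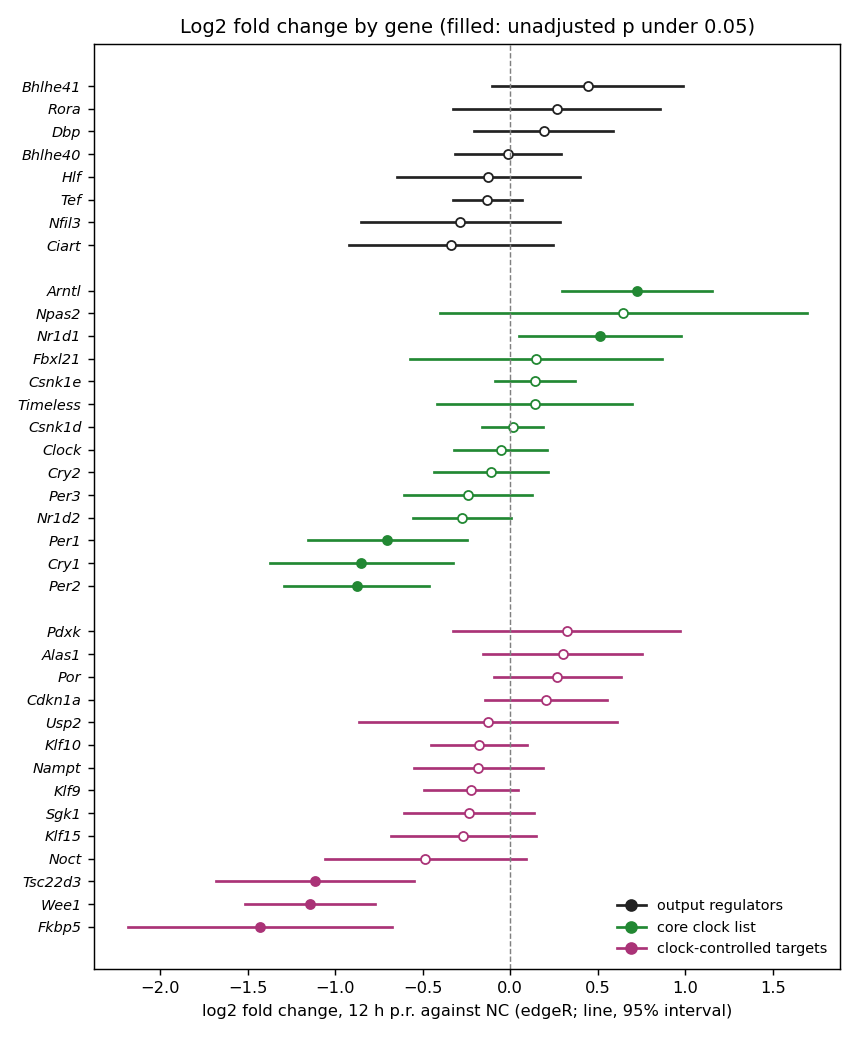
Log2 fold change of 12 hours p.r. against NC by edgeR with 95% interval for the 8 output regulators (black), 14 core clock genes (green), and 14 clock-controlled targets (purple), filled where the unadjusted p value is under 0.05. All 8 output regulators have open points and intervals across 0, while *Per2*, *Cry1*, *Per1*, *Arntl*, *Nr1d1*, *Tsc22d3*, *Wee1*, and *Fkbp5* are filled.

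Since *Dbp* and the period genes share the E-box drive in textbook accounts, their reads were set side by side within each library. The reads of *Dbp* per read of *Per2* were 3.21, 3.56, 3.92, and 5.401 in the 12-hour p.r. rats and 2.02, 2.11, 2.51, and 1.16 in the NC rats, so every runner was above every control. Per read of *Per1* they were 2.28, 3.89, 3.45, and 5.22 in the runners and 1.89, 2.26, 2.25, and 1.25 in the controls, again without overlap. Per read of *Cry1* they were 29.4, 27.3, 19.6, and 57.2, compared with 16.7, 19.1, 14.5, and 10.1. These ratios need no scaling between rats, but they were chosen after the values of the genes were seen, so no test is attached to them. *Per2* and *Cry1* were themselves lower at 12 hours p.r. without overlap, so a gene level between the groups can also give separated ratios. The share of other genes with separated ratios was not counted, and the gap is not read as a result about *Dbp*.

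Of 14 clock-controlled target genes, all were tested, 4 had a log2 fold change above 0 and 10 below, where 54.2% of all genes were above 0, and the median was −0.20. None had an adjusted p value under 0.05, and 3 had an unadjusted p value under 0.05, all 3 lower at 12 hours p.r., as 4.08% of all genes were. *Wee1*, a cell cycle kinase gene with E-boxes known from liver, was at 37.1, 34.3, 34.5, and 38.4 CPM in the runners and at 82.2, 65.4, 64.3, and 107 CPM in the controls. This was a log2 fold change of −1.14 ± 0.16 (SE, adjusted p = 0.142 by edgeR), with a wide gap between the groups. *Tsc22d3* and *Fkbp5*, which also respond to glucocorticoids, had log2 fold changes of −1.11 ± 0.25 (SE, adjusted p = 0.385 by edgeR) and −1.43 ± 0.33 (SE, adjusted p = 0.392 by edgeR). The D-box targets *Por*, *Alas1*, and *Pdxk* had values of 0.27 ± 0.16 (SE), 0.30 ± 0.20 (SE), and 0.32 ± 0.29 (SE), each with an interval across 0.

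How the 8 regulators varied together from rat to rat was examined over all 28 pairs, with Pearson's r and Spearman's rho on log2(CPM + 0.5) and exact permutation of the 8 rats. Of the pairs 14 had an r above 0 and 14 below. *Dbp* and *Nfil3*, the activator and the repressor of D-boxes, had the strongest relation. It was negative, with r = −0.86 (exact permutation p = 0.00600, adjusted p = 0.168 over the 28 pairs) and rho = −0.81 (exact permutation p = 0.0218, adjusted p = 0.515). No pair passed the adjustment. With NC replicates 1 and 4 left out, the 2 rats farthest from the median of *Dbp*, r was −0.81. With the group means removed from all 8 rats it was −0.84 (permutation over all 8 rats, p = 0.00928, adjusted p = 0.260). Values with the group means removed are not freely exchangeable between groups, so this p value is approximate and may be too small. Groups of 4 rats are too small for a correlation within each. In reads, *Dbp* per read of *Nfil3* was 17.7, 21.4, 10.6, and 35.0 at 12 hours p.r. and 11.5, 16.3, 21.5, and 8.57 in NC. Both ends of this range came from replicates 4, 1 of each group, and the groups overlapped.

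**Figure D4:**
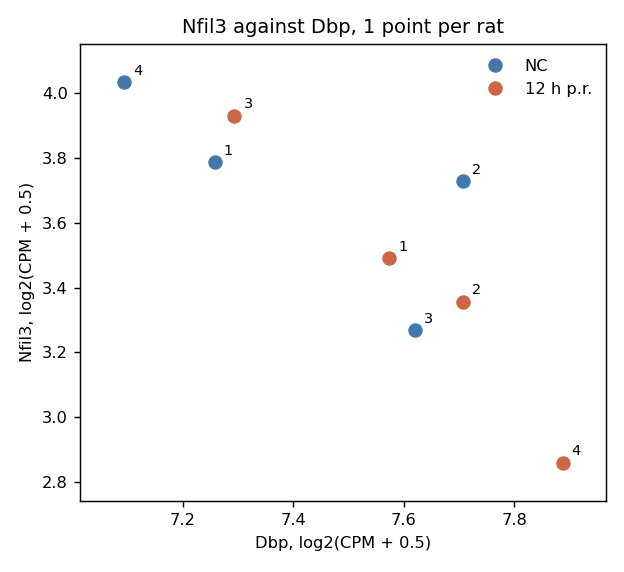
*Nfil3* (vertical axis) against *Dbp* (horizontal axis), both as log2(CPM + 0.5), 1 point per rat with its replicate number, NC in blue and 12 hours p.r. in orange. Over the 8 rats the points fall from upper left to lower right, with r = −0.86 (adjusted p = 0.168 by exact permutation). The fall is not even among the controls, where NC replicate 2 lies above NC replicate 3 on both axes.

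The other pairs were weaker. *Nfil3* and *Bhlhe41* gave r = −0.66 (exact permutation p = 0.0763) with rho = −0.76 (exact permutation p = 0.0368), and *Bhlhe41* and *Rora* gave r = 0.64 (exact permutation p = 0.0801) with rho = 0.55 (exact permutation p = 0.171). Without the 2 rats farthest in the first gene, these r values were −0.80 and 0.30. The related activators *Dbp* and *Tef* gave r = −0.19 (exact permutation p = 0.651), and the paralogs *Bhlhe40* and *Bhlhe41* r = 0.39 (exact permutation p = 0.341). The adjusted p values of these 4 pairs, for r and for rho, ran from 0.515 to 0.865.

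Across all genes tested, the 3 genes whose log2 CPM followed each regulator most closely over the 8 rats were listed by Pearson's r, as a description only. For *Dbp* these were *Nudt16l1* (r = 0.96), *Skida1* (r = 0.95), and *Slc49a3* (r = 0.95). The closest gene was *Psmc4* for *Tef* (r = 0.96), *Rhbdl2* for *Hlf* (r = 0.96), *Stc1* for *Nfil3* (r = 0.93), *Clcn7* for *Ciart* (r = 0.95), *Tmem65* for *Bhlhe40* (r = 0.97), *Panx2* for *Bhlhe41* (r = 0.94), and *Kcnab2* for *Rora* (r = 0.96). Of the 24 genes so listed, 0 were output regulators, core clock genes, or clock-controlled targets. Those lists make up only 8, 14, and 14 of the 13937 genes tested, so this count says little and is not read as a result. Between 6 and 17 genes had an r above 0.9 with any 1 regulator, and all points share the same 8 libraries. How many genes would reach that r by chance with 8 rats was not worked out.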

How the data were processed

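Right Achilles tendons of 4 rats at 12 hours p.r. and 4 NC rats were sequenced as stranded polyadenylate mRNA libraries, 1 per rat. The authors aligned reads to Rnor_6.0 with Hisat2 2.1.0 and deposited raw counts per Ensembl gene from featureCounts 1.6.3, with the strand setting and the handling of shared reads not given in the sources used here. Their deposited FPKM are counts over gene length and over a library factor, which matched the DESeq2 size factors of the counts and not the library totals. A table with the authors' own fold changes and p values was not used.

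Counts were filtered with filterByExpr, scaled by TMM, and tested with the quasi-likelihood test of edgeR 4.0.16 (R 4.3.3) with Benjamini-Hochberg adjustment. Standard errors and 95% intervals come from its F statistic. Single genes were tested by exact permutation over the 70 splits of the rats on log2(CPM + 0.5). Scripts were tested on simulated data. Alternatives used DESeq2 1.42.0, other factors and filters, limma 3.58.1 on log2(FPKM + 1) and log2(FPKM + 0.1), a replicate block, a muscle score, and fits without single rats.

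Members and gene lists were chosen with earlier results of these data known. Some genes planned for comparison are not reported here. Named are all members, the core clock genes, the 3 targets with the smallest p value, and, of the 3 genes most alike to each member, all for *Dbp* and the first for the others. *Por*, *Alas1*, *Pdxk*, and the tenocyte and endothelial markers were named after their values were seen. Rats are the replicates, so p values measure the spread between animals. Where reads are few, intervals of counting cover counting error only. Motifs were searched in RefSeq windows of GRCr8. *Myh2*, *Myh4*, *Atp2a1*, and *Pecam1* of the marker lists were not analysed here.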

Additional observations from a re-analysis of the deposited data

How the results depend on the processing

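The number of regulators with an adjusted p value under 0.05 was 0 in all fits, and 7 of the 8 kept the sign of their log2 fold change in every fit. The exception, *Bhlhe40* (−0.01 with all rats), ran from −0.12 to 0.070 over the fits without 1 rat and was 0.070 without 12-hour p.r. replicate 1, 0.011 without 12-hour p.r. replicate 4, 0.040 without NC replicate 2, 0.025 without NC replicate 3, and 0.015 without both 12-hour p.r. replicate 3 and NC replicate 3, a fit chosen after seeing the data. In a second such fit, also without 12-hour p.r. replicate 1, it was 0.13, *Nfil3* was −0.77, *Bhlhe41* 0.82, *Dbp* 0.43, and *Ciart* −0.19. Without 1 rat, the log2 fold change ran from 0.09 to 0.29 for *Dbp*, −0.17 to −0.09 for *Tef*, −0.29 to −0.02 for *Hlf*, −0.50 to −0.12 for *Nfil3*, −0.46 to −0.18 for *Ciart*, 0.29 to 0.69 for *Bhlhe41*, and 0.06 to 0.39 for *Rora*. The number of regulators with an unadjusted p value under 0.05 ran from 0 to 1 in these fits (the 1 being *Bhlhe41* without NC replicate 3) and was 2 (*Nfil3* and *Bhlhe41*) without both rats and without the 3 rats. Of the core clock genes, 5 changed sign without 1 rat, namely *Timeless* (range, −0.037 to 0.30, negative without 12-hour p.r. replicate 1), *Fbxl21* (−0.11 to 0.31, negative without 12-hour p.r. replicate 2), *Csnk1d* (−0.012 to 0.034, negative without NC replicate 1), *Cry2* (−0.18 to 0.021, positive without NC replicate 2), and *Clock* (−0.15 to 0.026, positive without NC replicate 4). Of the 13937 genes, 1 passed an adjusted p value of 0.05, against 96 with DESeq2 (1 core clock gene, *Per2*) and 0 with either limma fit, the replicate block, the muscle score, any rat left out, or both rats left out, and 2 without the 3 rats. At an unadjusted p value under 0.05 there were 1326, and 879 to 1580 without 1 rat. Of the core clock genes 5 were under it, with 4 to 5 without 1 rat and 5 to 7 in the other fits. The labels do not say whether the replicate numbers pair the rats. Deviations of same-numbered rats correlated from −0.20 to 0.13, and those of unlike-numbered rats from −0.31 to 0.34. With 4 rats per group these values cannot decide it. The block changed no call of a regulator. The cause of these shifts was not tested. Depth limits *Hlf*, *Rora*, and, to a lesser degree, *Ciart*.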
